A study of Mus musculus with 12 samples.

Results

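The genes described here are 10 transcriptional targets of the tumour suppressor p53, of 25619 genes with a value in each of the 3 deposited tables: Cdkn1a, Ccng1, Mdm2, Trp53inp1, Fas, Eda2r, Bbc3, Pmaip1, Phlda3 and Sesn2. They were chosen by gene name, and all 10 are protein-coding genes that passed the filter on low counts. The study sequenced total RNA of subcutaneous mouse tumours of pancreatic ductal adenocarcinoma in 4 groups of 3 libraries: an antibody to the interleukin-1 receptor (anti-IL-1R1), an agonistic antibody to CD40 (CD40 agonist), both antibodies (combination), and no treatment (untreated). The antibodies were injected intraperitoneally. IL-1R1 is the signalling receptor of interleukin-1, and CD40, found on dendritic cells, macrophages and B cells, licenses them to prime T cells when engaged. The tumour cell line, its Trp53 genotype, the strain, sex and age of the mice and the day of collection are not stated by the labels, and no label says that each library is a different mouse, so the p-values measure the spread between these libraries. A whole-tumour library mixes cancer cells, fibroblasts, immune cells and vessels, and fewer cells of a type cannot be told apart from less RNA per cell.

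The p53 protein is a transcription factor that is normally kept low by MDM2, a ubiquitin ligase that p53 itself induces. DNA damage, oncogene activity and other stresses release p53 from this loop, and it then binds a pair of half-sites in its target genes. The products halt the cell cycle (p21, encoded by Cdkn1a), limit p53 itself (Mdm2, Ccng1), sensitise the cell to death ligands (Fas, Eda2r), start mitochondrial apoptosis (Bbc3 and Pmaip1, which encode PUMA and NOXA), or curb growth signalling and oxidative stress (Phlda3, Sesn2, Trp53inp1). Several of these genes also answer to other signals: Cdkn1a and Fas are known targets of interferon and inflammatory transcription factors, and Sesn2 of amino-acid starvation. Mutation of p53 is frequent in pancreatic cancer.

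Sequences upstream of the start sites are shown for the 3 genes with a p53 half-site in a promoter window that was searched. The search covered 8 of the 10 genes, in 11 RefSeq windows of build GRCm38.p6. Each window held 250 bases before and 50 bases after a start. No window of Pmaip1 or Trp53inp1 was searched, so the counts below say nothing of their promoters. The p53 half-site consensus was in 3 of these windows, 1 each of Cdkn1a, Ccng1 and Mdm2, and in 8.36% of 32851 mouse promoter windows. An exact pair of half-sites with no bases between them was in none of the 11 and in 0.00913% of all. Pairs with bases between the half-sites, or with a mismatch, were not searched for. The count therefore does not show that these promoters lack a p53 site. Both strands were searched, and a match is a run of letters, not a measured binding site. Each line gives the 250 bases before the start, 5′ to 3′ on the gene's strand, with the matches in capitals.
Cdkn1a chr17:29090729-29090978 plus strand: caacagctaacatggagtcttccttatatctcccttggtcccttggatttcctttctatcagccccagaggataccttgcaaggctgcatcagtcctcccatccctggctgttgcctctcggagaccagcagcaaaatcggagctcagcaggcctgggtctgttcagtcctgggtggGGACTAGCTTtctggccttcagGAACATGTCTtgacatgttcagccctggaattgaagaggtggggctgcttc
Ccng1 chr11:40755287-40755536 minus strand: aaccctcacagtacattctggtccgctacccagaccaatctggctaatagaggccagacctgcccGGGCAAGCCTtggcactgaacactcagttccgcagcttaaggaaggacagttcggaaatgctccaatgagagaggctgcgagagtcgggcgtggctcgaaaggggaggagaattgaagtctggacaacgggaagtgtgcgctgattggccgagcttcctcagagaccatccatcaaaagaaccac
Mdm2 chr10:117710759-117711008 minus strand: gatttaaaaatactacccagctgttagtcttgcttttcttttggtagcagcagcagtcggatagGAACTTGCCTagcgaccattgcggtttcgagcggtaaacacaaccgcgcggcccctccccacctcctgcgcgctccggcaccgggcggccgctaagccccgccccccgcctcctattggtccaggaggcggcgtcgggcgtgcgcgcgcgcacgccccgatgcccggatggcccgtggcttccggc
In Cdkn1a the matches began 73 and 51 bases before the start, in Ccng1 185 and in Mdm2 186 bases before it, and all are p53 half-sites. The other window of Cdkn1a that was searched held 0 half-sites.

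Libraries held 27.8 to 53.3 M reads in genes, and levels are given as CPM, the read count per 1000000 reads of the library's total after scaling by TMM factors, which equalise the bulk of genes between libraries. Of the 8 epithelial tumour markers, all tested, Krt8 had 840 to 1851 CPM and Cdh1, which encodes E-cadherin, 255 to 560 CPM over the 12 libraries. Epcam had 0 to 17.5, Cldn4 0 to 2.00 and Cldn7 0 to 0.585 CPM. CD40 agonist library 2 and combination library 1 stood apart by their skeletal muscle transcripts: the 9 muscle markers tested summed to 1838 and 3547 CPM there and to at most 45.4 CPM in any other library. Ckm, the muscle creatine kinase, had 116 and 154 CPM in those libraries and 0 reads in anti-IL-1R1 library 1, CD40 agonist library 3, combination library 2 and untreated library 2. CD40 agonist library 3 stood apart from its group in interferon response genes, whose 10 listed members summed to 285 CPM there, against 1249 and 1758 CPM in CD40 agonist libraries 1 and 2. Each comparison tested 19436 genes with edgeR's quasi-likelihood test, and a call means a p under 0.05 after Benjamini-Hochberg adjustment over all of them.

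The genes covered a wide range of abundance. Per kilobase of the gene length in the authors' table, the mean level over the 12 libraries was highest for Phlda3, at 116 CPM per kilobase. Pmaip1 followed with 29.7, Ccng1 with 19.1, and Cdkn1a and Mdm2 with 13.1 CPM per kilobase each. Bbc3 had 8.33, Trp53inp1 4.69 and Sesn2 3.71, and the receptor genes Fas and Eda2r were the lowest with 1.55 and 0.681 CPM per kilobase. The scarcest transcripts varied most. The SD of log2(CPM + 0.5) over the 12 libraries was 1.26 for Fas, 0.99 for Eda2r and 0.75 for Cdkn1a, which lie at the 97.7th, 95.7th and 91.8th percentile of 14378 genes averaging 1 CPM or more. For the other 7 genes it was 0.26 to 0.44, against a median of 0.31 over those genes. Fas rested on 20 to 506 reads a library and Eda2r on 30 to 650, so their single values carry more counting error than those of the other genes, which had at least 215 reads in each library.

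**Figure D1:**
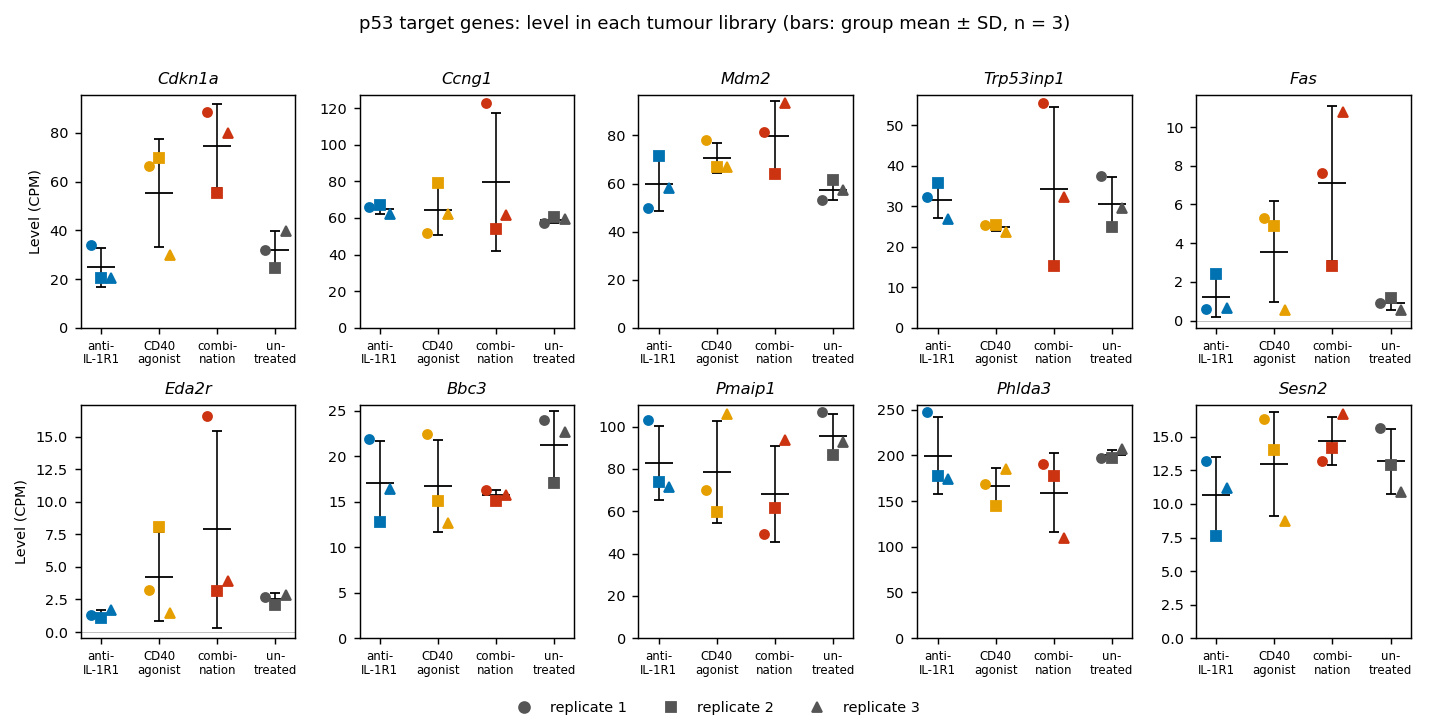
Level of each p53 target gene in every library, in CPM on TMM-scaled totals, with 1 panel a gene and the groups side by side; points are libraries, shaped by replicate number, and bars are the group mean ± SD. Cdkn1a, Fas and Eda2r spread widely between libraries, with the combination libraries above the untreated ones, while Bbc3 and Phlda3 were lower in the 3 combination libraries than in the untreated ones.

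Cdkn1a (chr17:29309950-29319701, plus strand, mm39) encodes p21, the inhibitor of cyclin-dependent kinases that carries out the p53 arrest. It was higher in the combination than in anti-IL-1R1 alone, by 2.99-fold, and this was the only call by edgeR, at an adjusted p under 0.05, among the 10 genes in any comparison. Its levels were 34.1, 20.3 and 20.3 CPM in anti-IL-1R1 libraries, 66.3, 69.7 and 29.9 CPM in CD40 agonist libraries, 88.3, 55.3 and 80.0 CPM in combination libraries and 31.9, 24.6 and 39.7 CPM in untreated libraries. The 3 combination libraries were above every anti-IL-1R1 and every untreated library, and CD40 agonist library 3 lay within the range of the untreated ones. The group means were 24.9 ± 8.00 CPM in anti-IL-1R1, 55.3 ± 22.1 in CD40 agonist, 74.5 ± 17.2 in combination and 32.1 ± 7.55 in untreated libraries (SD, n = 3 each). Ordered by mean, anti-IL-1R1 was followed by untreated, CD40 agonist and combination, and each group overlapped its neighbour in that order.

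For combination against anti-IL-1R1 the log2 fold change of Cdkn1a was 1.58 (SE 0.33, 95% interval 0.87 to 2.29, edgeR adjusted p = 0.0308). Of all genes tested in that comparison, 2.44% were called, 1.89% as higher and 0.551% as lower. The call was lost without anti-IL-1R1 library 1, 2 or 3 (adjusted p = 0.0709, 0.127 and 0.156), without combination library 1 or 3 (0.061 and 0.0994), and without both muscle-rich libraries (0.0528), while the log2 fold change stayed between 1.42 and 1.87. It was also lost with the replicate block (adjusted p = 0.0674, or 0.0642 with only the groups compared in the fit) and with limma voom (0.0517), and 5 of 14 alternatives kept it.

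Against untreated tumours, Cdkn1a in the combination had a log2 fold change of 1.21 (SE 0.32, 95% interval 0.51 to 1.92), which was not called by edgeR (adjusted p = 0.106). It was called by DESeq2 (adjusted p = 0.0106) and by edgeR with the replicate block and only the groups compared in the fit (adjusted p = 0.0471). The CD40 agonist alone gave 0.78 (SE 0.32, 95% interval 0.09 to 1.48, edgeR adjusted p = 1) and anti-IL-1R1 alone gave -0.37 (SE 0.32, 95% interval -1.06 to 0.33, adjusted p = 1). The combination exceeded the CD40 agonist by 0.43 (SE 0.32, 95% interval -0.26 to 1.12, edgeR adjusted p = 0.852), so a difference between them was not shown. The groups of these comparisons share libraries, so their fold changes are not independent of each other.

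Mdm2 (chr10:117524780-117546663, minus strand) encodes the ligase that degrades p53 and is itself induced by it. It had 49.7, 71.4 and 58.0 CPM in anti-IL-1R1 libraries, 77.9, 66.8 and 67.0 CPM in CD40 agonist libraries, 81.3, 64.1 and 93.6 CPM in combination libraries and 53.2, 61.4 and 57.2 CPM in untreated libraries. All CD40 agonist and all combination libraries lay above all untreated ones, and the spread was narrow beside that of Cdkn1a. The log2 fold change was 0.48 for combination against untreated (SE 0.17, 95% interval 0.10 to 0.85, edgeR adjusted p = 0.213) and 0.30 for CD40 agonist against untreated (SE 0.17, 95% interval -0.07 to 0.68, adjusted p = 1), and neither was called.

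Ccng1 (chr11:40639379-40646138, minus strand) encodes cyclin G1, which recruits a phosphatase to MDM2. Its levels were 65.8, 67.1 and 62.1 CPM in anti-IL-1R1 libraries, 51.7, 79.0 and 62.4 CPM in CD40 agonist libraries, 123, 53.9 and 61.8 CPM in combination libraries and 57.1, 60.3 and 59.4 CPM in untreated libraries. The highest values of the CD40 agonist and combination groups were those of the muscle-rich libraries. The log2 fold change of combination against untreated was 0.43 (SE 0.26, edgeR adjusted p = 0.432) and, without combination library 1, -0.03. Anti-IL-1R1 libraries were all above the untreated ones, by 0.14 on the log2 scale (SE 0.25, adjusted p = 1).

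Fas (chr19:34268066-34305172, plus strand) encodes the death receptor CD95, bound by the Fas ligand of cytotoxic lymphocytes. Its levels were 0.575, 2.40 and 0.629 CPM in anti-IL-1R1 libraries, 5.28, 4.87 and 0.541 CPM in CD40 agonist libraries, 7.65, 2.83 and 10.8 CPM in combination libraries and 0.924, 1.19 and 0.550 CPM in untreated libraries. The combination libraries were above every anti-IL-1R1 and untreated library, and the CD40 agonist group held both high libraries and, in library 3, the lowest value of all 12. The group means were 1.20 ± 1.04 CPM in anti-IL-1R1, 3.56 ± 2.63 in CD40 agonist, 7.10 ± 4.03 in combination and 0.887 ± 0.320 in untreated libraries (SD, n = 3 each), and, ordered by mean, untreated, anti-IL-1R1, CD40 agonist and combination each overlapped the next. Of the 10 genes, Fas had the largest estimate in the combination and in the CD40 agonist group, each against untreated, with wide intervals. For combination against untreated the log2 fold change was 3.00 (SE 0.83, 95% interval 1.20 to 4.79, edgeR adjusted p = 0.116; DESeq2 adjusted p = 0.00311). For combination against anti-IL-1R1 it was 2.58 (SE 0.82, 95% interval 0.81 to 4.34, edgeR adjusted p = 0.132; DESeq2 adjusted p = 0.0109) and, without anti-IL-1R1 library 2, 3.53. For CD40 agonist against untreated it was 2.00 (SE 0.80, 95% interval 0.27 to 3.74, edgeR adjusted p = 1). For anti-IL-1R1 against untreated it was 0.42 (SE 0.79, adjusted p = 1) and, without anti-IL-1R1 library 2, -0.56.

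Eda2r (chrX:96377446-96420822, minus strand) encodes the receptor of the A2 form of ectodysplasin, a member of the tumour necrosis factor receptor family. It had 1.28, 1.06 and 1.70 CPM in anti-IL-1R1 libraries, 3.21, 8.05 and 1.46 CPM in CD40 agonist libraries, 16.6, 3.17 and 3.91 CPM in combination libraries and 2.72, 2.09 and 2.86 CPM in untreated libraries. Its highest levels were those of combination library 1 and CD40 agonist library 2, the muscle-rich libraries. The combination libraries were above, and the anti-IL-1R1 libraries below, all untreated ones. The log2 fold change was 2.55 for combination against anti-IL-1R1 (SE 0.68, 95% interval 1.07 to 4.02, edgeR adjusted p = 0.071) and 1.63 for combination against untreated (SE 0.66, 95% interval 0.21 to 3.04, edgeR adjusted p = 0.256). Without combination library 1 these were 1.39 and 0.47. The first was called without combination library 2 (edgeR adjusted p = 0.0356) and by DESeq2 (adjusted p = 0.00227). For CD40 agonist against untreated the value was 0.73 (SE 0.65, adjusted p = 1) and, without CD40 agonist library 2, -0.13. For anti-IL-1R1 against untreated it was -0.92 (SE 0.66, 95% interval -2.34 to 0.50, adjusted p = 1).

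The apoptotic effectors that act inside the cell, Bbc3 and Pmaip1, had negative estimates in the combination, and neither was called. Bbc3 (chr7:16042318-16052130, plus strand) encodes PUMA, which neutralises all anti-apoptotic BCL2 proteins. It had 21.9, 12.8 and 16.4 CPM in anti-IL-1R1 libraries, 22.4, 15.1 and 12.7 CPM in CD40 agonist libraries, 16.3, 15.1 and 15.7 CPM in combination libraries and 24.0, 17.1 and 22.7 CPM in untreated libraries. The combination libraries lay close together and below all untreated ones, at a log2 fold change of -0.44 (SE 0.25, 95% interval -0.98 to 0.11, edgeR adjusted p = 0.423). Pmaip1 (chr18:66591604-66598636, plus strand) encodes NOXA, which binds MCL1. Its levels were 103, 73.6 and 71.5 CPM in anti-IL-1R1 libraries, 69.8, 59.8 and 106 CPM in CD40 agonist libraries, 49.2, 61.7 and 93.5 CPM in combination libraries and 107, 86.7 and 92.7 CPM in untreated libraries. Combination library 3 lay within the untreated range and the other 2 below it, and the log2 fold change was -0.49 (SE 0.25, 95% interval -1.04 to 0.06, edgeR adjusted p = 0.372).

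Phlda3 (chr1:135693857-135696874, plus strand), whose product competes with AKT for membrane lipids, had 248, 177 and 174 CPM in anti-IL-1R1 libraries, 169, 145 and 185 CPM in CD40 agonist libraries, 191, 177 and 110 CPM in combination libraries and 197, 197 and 207 CPM in untreated libraries. Every CD40 agonist and combination library was below every untreated one, at log2 fold changes of -0.27 (SE 0.21, 95% interval -0.72 to 0.17, edgeR adjusted p = 1) and -0.33 (SE 0.21, 95% interval -0.78 to 0.11, adjusted p = 0.452). Sesn2 (chr4:132219343-132237812, minus strand), which encodes a leucine sensor that restrains mTORC1, had 13.2, 7.58 and 11.2 CPM in anti-IL-1R1 libraries, 16.3, 14.0 and 8.72 CPM in CD40 agonist libraries, 13.2, 14.2 and 16.7 CPM in combination libraries and 15.7, 12.9 and 10.9 CPM in untreated libraries. Trp53inp1 (chr4:11156431-11174379, plus strand), which encodes a stress-induced partner of p53 and of autophagy proteins, had 32.4, 35.7 and 26.8 CPM in anti-IL-1R1 libraries, 25.3, 25.4 and 23.7 CPM in CD40 agonist libraries, 55.4, 15.4 and 32.4 CPM in combination libraries and 37.6, 24.8 and 29.7 CPM in untreated libraries. Both overlapped between the groups of every comparison. The combination group held both the highest Trp53inp1 value, in the muscle-rich library 1, and the lowest, in library 2.

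Counted over the 10 genes, 4 were higher in all combination libraries than in all untreated ones (Cdkn1a, Mdm2, Eda2r and Fas), against 10.7% of all genes tested, and 2 were lower (Phlda3 and Bbc3), against 11.7%. By edgeR none of the 10 was called in that comparison and by DESeq2 2, Cdkn1a and Fas, where DESeq2 called 5.31% of all genes. There edgeR called 0.0617% of all genes (0.0206% as higher and 0.0412% as lower), and 4 of the 10 had an unadjusted edgeR p under 0.05, against 15.5% of all genes. In combination against anti-IL-1R1, 3 genes were higher without overlap (Cdkn1a, Eda2r and Fas), against 8.8%, and none was lower, against 8.29%. In that comparison 4 genes had an unadjusted edgeR p under 0.05, against 14.6% of all genes, and DESeq2 called 3 of the 10 (Cdkn1a, Eda2r and Fas), against 6.71% of all genes. The median log2 fold change of the 10 genes was 0.30 against untreated and 0.35 against anti-IL-1R1, beside 0.00 and -0.02 over all genes tested. The same 7 genes had positive estimates in both comparisons, and the 3 negative ones were those of Phlda3, Bbc3 and Pmaip1. Over all 19436 genes tested, 9758 were positive against untreated and 9351 against anti-IL-1R1. Both comparisons use the same combination libraries, so they are not independent. Trp53inp1 changed sign in 3 of 14 alternatives against untreated and in 5 against anti-IL-1R1. Ccng1 did so in 2 of each, and Bbc3 in 1 against anti-IL-1R1.

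With CD40 agonist against untreated, 1 gene was higher in all libraries (Mdm2, against 5.14% of all genes) and 1 lower (Phlda3, against 5.81%). No gene of the 10 was called, as was none of the 19436 tested (0%), and 2 had an unadjusted edgeR p under 0.05 (Cdkn1a and Fas), against 2.41% of all genes. With anti-IL-1R1 against untreated, 1 gene was higher (Ccng1, against 4.84%) and 1 lower (Eda2r, against 4.99%). Again none of the 10 was called (0% of all genes), and none had an unadjusted p under 0.05, against 1.56% of all genes. Between combination and CD40 agonist no gene of the 10 was separated in either direction, against 3.54% higher and 5.02% lower over all genes, and none was called (0.00515% of all genes) or had an unadjusted edgeR p under 0.05 (6.64%). DESeq2 called 0 of the 10 in these 3 comparisons, against 0.0414%, 0% and 0.517% of all genes for CD40 agonist against untreated, anti-IL-1R1 against untreated and combination against CD40 agonist, and limma voom called 0 of the 10, against 0% of all genes in each. The medians were 0.05, -0.11 and 0.24 for CD40 agonist against untreated, anti-IL-1R1 against untreated and combination against CD40 agonist.

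The test of whether anti-IL-1R1 had a different effect with the CD40 agonist than without it called none of the 10 genes and none of all genes tested (0%), and 0 of the 10 had an unadjusted edgeR p under 0.05, against 4.37% of all genes. The largest estimate was that of Eda2r, 1.82 on the log2 scale (SE 0.92, 95% interval -0.17 to 3.81, edgeR adjusted p = 1), followed by Cdkn1a with 0.80 (SE 0.45, 95% interval -0.18 to 1.78, adjusted p = 1). The Eda2r estimate was 0.66 without combination library 1 and 2.67 without CD40 agonist library 2, the muscle-rich libraries. In the authors' deposited table of each of 3 comparisons (each single antibody against no treatment, and the combination against the CD40 agonist), 0 of the 10 genes had an adjusted p under 0.05, and the lowest was that of Fas with CD40 agonist, 0.256.

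**Figure D2:**
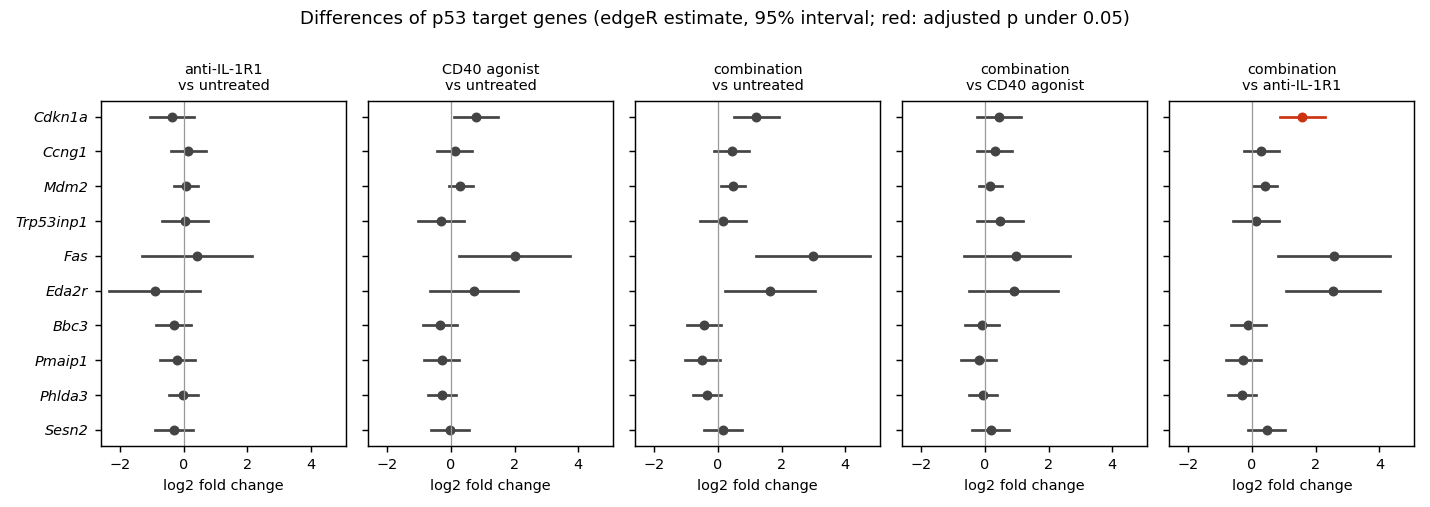
Log2 fold change of each p53 target gene in the 5 comparisons, as points with 95% intervals from edgeR's fit of all 12 libraries; red marks an adjusted p under 0.05 over all genes tested. The intervals of Cdkn1a, Fas, Eda2r and Mdm2 lay above 0 in both comparisons of the combination with untreated and anti-IL-1R1 tumours, and the red point is Cdkn1a in combination against anti-IL-1R1, at 1.58.

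Transcripts of other programmes and cell types moved beside these genes. The 10 interferon response genes summed to 126 to 250 CPM in anti-IL-1R1 libraries, 285 to 1758 CPM in CD40 agonist libraries, 1517 to 4943 CPM in combination libraries and 317 to 511 CPM in untreated libraries, with none at 0 reads in any library. Within the CD40 agonist group the library with the lowest sum, library 3, also had the lowest Cdkn1a and Fas. It was also the lowest of that group in summed macrophage markers (869 CPM) and T cell markers (6.33 CPM), and the highest in epithelial markers (5009 CPM). By edgeR all 10 interferon response genes were called higher in combination against anti-IL-1R1 and 0 in combination against untreated. In the latter all 10 had an unadjusted edgeR p under 0.05, and DESeq2 called 9. The 10 calls against anti-IL-1R1 fell to 0 when anti-IL-1R1 library 1, 2 or 3 or combination library 3 was left out and with the replicate block (4 with the block and only the groups compared in the fit), to 1 with limma voom and to 2 with no filter. Macrophage markers, 8 of 8 tested, summed to 644 to 898 CPM in anti-IL-1R1, 869 to 2293 CPM in CD40 agonist, 1520 to 2430 CPM in combination and 798 to 1014 CPM in untreated libraries. Lyz2, the most abundant of them, averaged 1100 CPM in combination and 393 CPM in untreated libraries, and Adgre1 11.6 and 17.2 CPM. In combination against untreated, 7 of the 8 macrophage markers had positive and 1 a negative estimate. T cell markers, 8 of 8 tested, summed to 3.73 to 11.1 CPM in anti-IL-1R1, 6.33 to 30.5 CPM in CD40 agonist, 15.8 to 87.3 CPM in combination and 11.3 to 26.3 CPM in untreated libraries. Epithelial markers ran the other way, at 3603 to 4682 CPM in anti-IL-1R1, 3502 to 5009 CPM in CD40 agonist, 2177 to 3084 CPM in combination and 3552 to 5069 CPM in untreated libraries. Epcam, 1 of these 8 markers, had 0 reads in combination library 2. Erythroid markers, 5 of 5 tested, summed to 5.78 to 13.1 CPM in anti-IL-1R1, 5.46 to 24.7 CPM in CD40 agonist, 2.80 to 4.07 CPM in combination and 11.8 to 17.7 CPM in untreated libraries, so that the combination libraries were below all others. Fibroblast markers, 8 of 8 tested, summed to 8495 to 17487 CPM in anti-IL-1R1, 8575 to 15609 CPM in CD40 agonist and 13522 to 15157 CPM in untreated libraries. Their sums split the combination group, with 6648 and 5439 CPM in libraries 1 and 3, where Cdkn1a, Fas, Eda2r and Mdm2 were highest of that group, and 18834 CPM in library 2. Col1a1, Col1a2 and Col3a1 made up most of the fibroblast sums. Pdgfra had 55.6 to 68.8 CPM in combination and 29.3 to 32.6 CPM in untreated libraries. Dcn had 153 to 175 CPM in combination and 103 to 119 CPM in untreated libraries. In combination against untreated, 3 of the 8 fibroblast markers had positive and 5 negative estimates. The part of these changes in the values of Cdkn1a, Fas, Eda2r and Mdm2 was not tested.

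**Figure D3:**
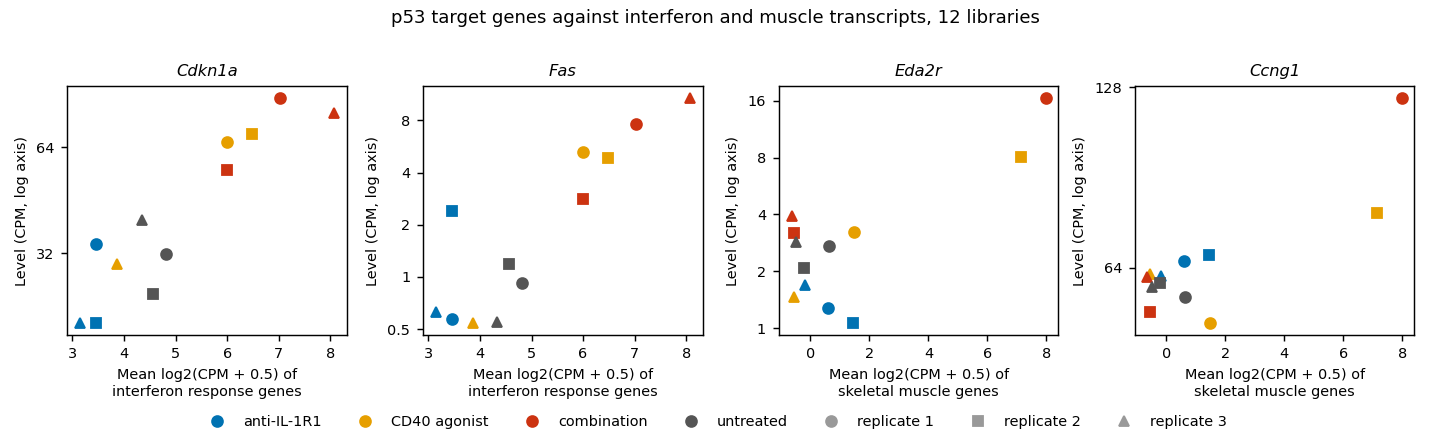
Level of Cdkn1a and Fas (CPM, log axis) against the mean log2(CPM + 0.5) of the 10 interferon response genes, and of Eda2r and Ccng1 against that of the 9 skeletal muscle genes; each point is 1 of the 12 libraries, coloured by group and shaped by replicate. CD40 agonist library 3, at an interferon level of 3.87, lies with the anti-IL-1R1 and untreated libraries for Cdkn1a and Fas, and the muscle-rich libraries, at 7.14 and 7.98, hold the highest Eda2r and Ccng1 levels. Other lists not shown ran about as close. Pearson r of log2 levels for Eda2r was 0.80 with muscle genes, 0.85 with macrophage markers and 0.78 with interferon response genes. For Cdkn1a it was 0.92 with interferon response genes, 0.88 with macrophage markers and -0.88 with epithelial markers.

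Among 12959 genes with a named symbol that averaged 1 CPM or more, the genes whose levels ran closest to Cdkn1a over the 12 libraries were Nos2, which encodes the inducible nitric oxide synthase of activated macrophages (Pearson r = 0.99 of log2 levels), the ferritin gene Fth1 (0.97) and Gpr18 (0.96). Nos2 had 4.86, 1.69 and 1.86 CPM in anti-IL-1R1 libraries, 55.0, 61.4 and 4.89 CPM in CD40 agonist libraries, 90.7, 30.1 and 113 CPM in combination libraries and 8.04, 3.76 and 10.6 CPM in untreated libraries. It was low in the same CD40 agonist library as Cdkn1a. Closest to Fas were Osmr, the oncostatin M receptor (r = 0.99), the interferon-induced Herc6 (0.97) and the kinase gene Ikbke (0.97). Osmr had 11.8, 18.5 and 10.8 CPM in anti-IL-1R1 libraries, 20.9, 21.7 and 10.2 CPM in CD40 agonist libraries, 28.0, 20.0 and 34.3 CPM in combination libraries and 13.2, 13.0 and 10.6 CPM in untreated libraries. Its high anti-IL-1R1 value fell in library 2, as did that of Fas. Closest to Mdm2 were Crlf3 (r = 0.97), Ankrd1 (0.96) and Zfp850 (0.95). Closest to Eda2r were Lacc1, Agtrap and Ldhb (0.95 each), and closest to Ccng1 were Ugp2 (0.95), Slc38a4 and Rbm24 (0.94 each). For the other 5 genes the closest had r of 0.90 to 0.94. The 12 libraries share the group structure and 2 hold muscle transcripts, and the genes were picked as the highest of all, so these coefficients are a description.

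Of 11 p53 regulators tested, 0 were called in any comparison by edgeR, DESeq2 or limma voom, and at most 1 a comparison had an unadjusted edgeR p under 0.05. Trp53 itself had 137, 85.8 and 112 CPM in anti-IL-1R1 libraries, 157, 125 and 93.4 CPM in CD40 agonist libraries, 113, 130 and 105 CPM in combination libraries and 117, 133 and 144 CPM in untreated libraries. All groups overlapped, and the log2 fold change of combination against untreated was -0.18 (SE 0.21, 95% interval -0.62 to 0.27, edgeR adjusted p = 0.714). Trp53 transcript says little of p53 activity, which is set mainly by protein stability. Mdm4, which encodes the MDM2 partner that masks p53, averaged 112 ± 32.5 CPM in combination and 96.6 ± 4.67 CPM in untreated libraries (SD, n = 3 each), and Cdkn2a, whose ARF product blocks MDM2, averaged 1.32 ± 0.392 CPM in combination and 1.96 ± 0.475 CPM in untreated libraries. Over the 11 regulators the median log2 fold change of combination was -0.00 against untreated and 0.02 against anti-IL-1R1.

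Of 30 further p53 targets listed, 29 were tested, and edgeR called 1 in combination against untreated and 1, the same gene, in combination against anti-IL-1R1, both as lower, and 0 in the other comparisons. This was Perp, which encodes a desmosomal membrane protein of epithelia that is a target of p53 and p63. It had 94.5, 80.8 and 66.0 CPM in anti-IL-1R1 libraries, 47.4, 44.9 and 73.0 CPM in CD40 agonist libraries, 35.8, 33.2 and 29.7 CPM in combination libraries and 88.4, 77.5 and 70.1 CPM in untreated libraries. All combination libraries were below all libraries of the other 3 groups. The log2 fold change was -1.26 against untreated (SE 0.20, edgeR adjusted p = 0.0405) and -1.29 against anti-IL-1R1 (SE 0.20, edgeR adjusted p = 0.0236). The call against untreated was lost without combination library 3 (adjusted p = 0.115), without untreated library 1, 2 or 3 (0.243, 0.176 and 0.0824), with limma voom (0.0888) and with the replicate block (0.161). The call against anti-IL-1R1 was lost without anti-IL-1R1 library 1, 2 or 3 (0.0709, 0.0666 and 0.0738), without combination library 3 (0.0531) and with the replicate block (0.0674). Perp fell in the libraries where the epithelial markers were also lowest, and their part in it was not tested.

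Ddit4, which encodes the mTORC1 inhibitor REDD1, had 356, 258 and 396 CPM in anti-IL-1R1 libraries, 510, 370 and 557 CPM in CD40 agonist libraries, 164, 276 and 144 CPM in combination libraries and 353, 415 and 366 CPM in untreated libraries. Combination libraries were below all CD40 agonist and all untreated ones, at log2 fold changes of -1.30 (SE 0.25, edgeR adjusted p = 0.292) and -0.96 (SE 0.25, adjusted p = 0.0964). Neither was called by edgeR, and both were called by DESeq2 (adjusted p = 0.000989 and 0.0091). DESeq2 also called Ckap2, which encodes a microtubule-associated protein, as higher in combination against untreated (log2 fold change 0.75, DESeq2 adjusted p = 0.0296; edgeR adjusted p = 0.114). The median log2 fold change of the 29 targets was 0.20 for combination against untreated, with 18 positive and 11 negative estimates, and 0.11 against anti-IL-1R1, with 16 positive and 13 negative. Their summed level was 1323 to 1400 CPM in anti-IL-1R1, 1303 to 1628 CPM in CD40 agonist, 1149 to 1262 CPM in combination and 1307 to 1394 CPM in untreated libraries. Ddit4 was the most abundant of the 29 in each group, averaging 195 CPM in combination and 378 CPM in untreated libraries. The sums therefore lean on Ddit4 and do not show a lower level of the other targets. Gadd45a, the next most abundant, averaged 137 and 120 CPM. Bax, the pore-forming effector of apoptosis, averaged 71.3 ± 20.4 CPM in combination and 52.7 ± 2.98 CPM in untreated libraries, and Zmat3, a splicing regulator, 35.1 ± 9.35 CPM in combination and 37.6 ± 3.05 CPM in untreated libraries (SD, n = 3 each).

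**Figure D4:**
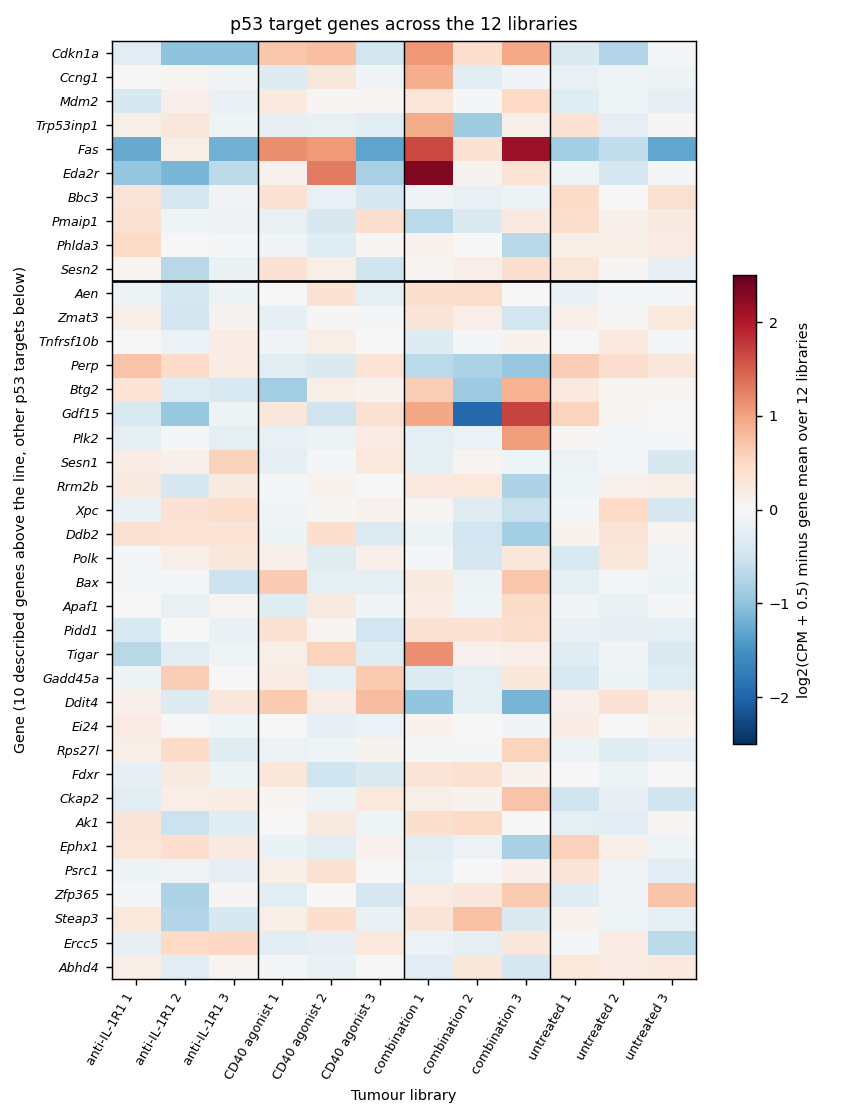
Log2(CPM + 0.5) minus the gene's mean over the 12 libraries, for the 10 described genes (above the line) and the 29 other p53 targets tested (below it), with 1 column a library in 4 groups of 3; red is above and blue below the gene's mean. Cdkn1a and Fas are red in combination libraries 1 and 3 and paler in library 2, and Eda2r is red in combination library 1 and pale in libraries 2 and 3. CD40 agonist libraries 1 and 2 exceed combination library 2 for Cdkn1a (66.3 and 69.7 against 55.3 CPM) and Fas (5.28 and 4.87 against 2.83 CPM). For Eda2r, CD40 agonist library 2 exceeds combination libraries 2 and 3 (8.05 against 3.17 and 3.91 CPM). Perp is blue in the combination libraries, Ddit4 is blue in combination libraries 1 and 3 and pale in library 2, and most other rows are pale.

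Arrest by p21 lowers the transcripts of mitotic genes in cycling cells. Of 10 such genes tested (among them Ccnb1, Cdk1, Plk1 and Mki67), edgeR called 0 in any comparison, with 0 to 5 at an unadjusted p under 0.05, and DESeq2 called Top2a as higher in the combination against untreated and against anti-IL-1R1. In combination against untreated 8 of 10 had positive and 2 negative estimates, with a median of 0.49. Top2a, the topoisomerase of dividing cells, had the lowest p, with a log2 fold change of 1.24 (SE 0.25, edgeR adjusted p = 0.0676), followed by the proliferation antigen Mki67 with 0.67 (SE 0.21, adjusted p = 0.16) and Cdk1 with 0.50 (SE 0.17, adjusted p = 0.176). In combination against anti-IL-1R1, where Cdkn1a was called, 9 of the 10 were positive, with a median of 0.32. Of all 19436 genes tested, 9351 were positive in that comparison. The mitotic genes were mostly positive with the single antibodies too. Against untreated, 10 of 10 were positive with CD40 agonist alone (median 0.26), beside 10046 of all genes tested. With anti-IL-1R1 alone, where the Cdkn1a estimate was negative, 8 of 10 were positive (median 0.15), beside 9694 of all genes tested. Whether Cdkn1a and the mitotic genes were expressed by the same cells was not tested, nor was a link between them. Of the 6 other inhibitors of cyclin-dependent kinases, edgeR called 0 in any comparison, with at most 1 at an unadjusted p under 0.05. In combination against anti-IL-1R1 5 of them had negative estimates, the lowest p being that of Cdkn1b, which encodes p27 (-0.53, SE 0.15, edgeR adjusted p = 0.0848, DESeq2 adjusted p = 0.0214).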

How the data were processed

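Total RNA of subcutaneous mouse tumours was sequenced in 12 libraries, 4 groups of 3, that were assigned from the sample titles. The authors deposited 3 tables, 1 a comparison, with whole-number read counts per gene and library and, beside them, log2 fold changes and p-values and adjusted p-values of their own comparisons, per the file headers. Per the submitters' processing notes the genome was mm39 and the tool DESeq2; the aligner, the counter and the strand setting are not named there or in the file headers. The tables' counts for the same library and gene were equal, with 0 mismatches, and were joined over 25619 genes; 42 other per-library columns were not used. No 2 libraries agreed within sampling noise. Antisense and overlapping genes cannot be told apart from the named gene where strand was not used in counting.

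Counts were tested with edgeR 4.0.16 (R 4.3.3): TMM factors, filterByExpr, and a robust quasi-likelihood fit of all 12 libraries with 8 residual degrees of freedom, which tested 19436 genes and gave a common biological coefficient of variation of 0.446. P-values were adjusted by Benjamini-Hochberg over all genes tested, with calls under 0.05. An SE is the log2 fold change divided by the root of F. Levels on a log2 scale used a pseudocount of 0.5 CPM. DESeq2 1.42.0, limma 3.58.1 (voom), other scaling, no filter, a replicate block, 2-group fits, leaving out 1 library in turn and leaving out the muscle-rich libraries were the alternatives. The procedure was tested on simulated data with less spread between libraries than these data have. That test therefore does not give the power or the error rate at the spread seen here. Same-numbered anti-IL-1R1 and untreated libraries deviated together (r of 0.15 to 0.25 across genes). No label says that the replicate numbers are pairs, and the fit reported did not use them. The blocked fit of those 2 groups called 27 genes, none of them among the 10. In the other comparisons same-numbered libraries did not all deviate together.

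The 10 genes, the gene lists and the markers were chosen with earlier results of these data known. Of each list the text may name, per comparison, up to 3 genes with the lowest edgeR p, besides Trp53, Mdm4 and Cdkn2a; Bax, Zmat3, the cell type markers and genes given as examples of a list were named after their values were seen. Promoter sequences come from RefSeq windows of GRCm38.p6, a different build from that of the files, and were joined by gene name only; gene coordinates are those in the deposited tables.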

Additional observations from a re-analysis of the deposited data

How the results depend on the processing

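Fas rested on 20 to 506 and Eda2r on 30 to 650 reads a library. The cause of the differences between settings below was not tested. Genes called in anti-IL-1R1 against untreated were 0 in the fit reported and 27 with the replicate block and only the 2 groups, and 0 to 0 when leaving out 1 library in turn. In CD40 agonist against untreated they were 0, and 8 by DESeq2, with 0 to 8 over the libraries left out (8 without CD40 agonist library 3). In combination against CD40 agonist they were 1, and 100 by DESeq2, but 0 by limma voom, with the replicate block, with only the 2 groups (blocked or not) and without the muscle-rich libraries, with 0 to 5 over the libraries left out. In combination against untreated they were 12, and 1026 by DESeq2, 1 by limma voom, 72 with no filter, 0 with the replicate block, 132 with the block and only the 2 groups, 154 with only the 2 groups, 153 without the muscle-rich libraries, and 0 to 550 over the libraries left out. In combination against anti-IL-1R1 they were 474, and 1297 by DESeq2, 143 by limma voom, 0 with the replicate block, 76 with the block and only the 2 groups, and 0 to 660 over the libraries left out. The interaction gave 0, and 21 by DESeq2. Except in anti-IL-1R1 against untreated, same-numbered libraries did not all deviate together (r of -0.55 to 0.17). No label says that the numbers mark pairs, so what the block removes is not known. Cdkn1a kept its direction in each of the 5 comparisons under all 14 alternatives run for it.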

Other observations

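Fasl, the ligand of FAS made by cytotoxic lymphocytes, had 0.261, 0.141 and 0.0699 CPM in anti-IL-1R1 libraries, 0.207, 1.47 and 0.0941 CPM in CD40 agonist libraries, 2.05, 0 and 2.74 CPM in combination libraries and 0.528, 0.113 and 0.0550 CPM in untreated libraries. Combination library 2 had 0 Fasl reads and also the lowest Fas level of its group. Eda, which encodes the ectodysplasins, had at most 1.80 CPM in any library. Tnfsf10, which encodes TRAIL, had 30.5, 14.6 and 29.1 CPM in combination libraries and 3.82, 1.87 and 0.443 CPM in anti-IL-1R1 libraries, with a log2 fold change of 3.60 for combination against anti-IL-1R1 (SE 0.93, edgeR adjusted p = 0.0811, DESeq2 adjusted p = 0.00219). The adaptor gene Fadd averaged 12.7 to 15.9 CPM over the 4 groups. Of 10 genes of the death receptor pathway tested, edgeR called 0 in any comparison, with 0 to 3 at an unadjusted p under 0.05.

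In the BCL2 family edgeR called 0 of 10 genes tested in any comparison, with 0 to 4 at an unadjusted p under 0.05. Bak1, which encodes a pore-forming effector, had 97.6, 110 and 109 CPM in combination libraries and 79.6, 43.2 and 49.1 CPM in anti-IL-1R1 libraries, with a log2 fold change of 0.88 (SE 0.23, edgeR adjusted p = 0.0595, DESeq2 adjusted p = 0.0117). Bmf, a BH3-only relative of Bbc3, had 58.2, 70.4 and 37.6 CPM in combination libraries, all below the 105, 85.0 and 84.0 CPM of untreated libraries, with a log2 fold change of -0.72 (SE 0.20, edgeR adjusted p = 0.106, DESeq2 adjusted p = 0.023). Of 10 genes of the integrated stress response, known to induce Sesn2, edgeR called 0 in any comparison, with 1 or 2 at an unadjusted p under 0.05, and DESeq2 called Psat1 as higher in combination against anti-IL-1R1. Asns, the asparagine synthetase gene, had a log2 fold change of -0.66 for combination against untreated (SE 0.28, edgeR adjusted p = 0.268). The single antibodies gave similar values against untreated, -0.76 for CD40 agonist and -0.61 for anti-IL-1R1 (SE 0.28 each), and neither was called.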
